A study of Homo sapiens with 183 samples.

Results

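CB-6644 is a small molecule that inhibits the ATPase activity of RUVBL1 and RUVBL2, and the measurements described here are those of AsPC-1 cells that received it with no protective variant. AsPC-1 is a human pancreatic ductal adenocarcinoma (PDAC) line with classical, gland-like identity. The cells carried a lentiviral empty vector (EV, Lv-Empty in the labels) and were treated with CB-6644 for 24 h in 3 libraries. The controls were 3 AsPC-1 libraries treated for 24 h with the vehicle DMSO, 1 each from cells with EV, with the RUVBL1 variant A62T and with the RUVBL2 variant dF109, which are variants that make cells resistant to the compound. These 6 libraries were chosen by their labels from the 12 of the AsPC-1 CB-6644 table and the 183 of the series. All 12 shared the line, a lentiviral vector, the 24 h time and batch 1, and they hold a single line, so the results describe these cultures only. Messenger RNA levels were deposited as TPM (a transcript's length-corrected share of its library), and 12296 of 19875 gene names averaged 1 TPM or above in these 6 libraries and were tested. RUVBL1 and RUVBL2 were left out of the tests because the vectors themselves raise them. The vehicle was measured once per vector, so within the DMSO group the spread between vectors and the spread between cultures cannot be told apart.

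RUVBL1 and RUVBL2 are AAA+ ATPases that assemble into a ring. The ring is a subunit of the INO80, SRCAP and TIP60 chromatin complexes, which slide or exchange nucleosomes or acetylate histones near promoters. With PIH1D1 and RPAP3 the ring forms the R2TP co-chaperone, which works with HSP90 to build RNA polymerase II, the kinases of the PIKK family and box C/D snoRNPs. In classical PDAC cells a group of lineage transcription factors, among them KLF5, ELF3, EHF, HNF4A and GATA6, keeps glandular genes active, and the question of this comparison is which messenger RNAs depend on the ATPase ring in such cells.

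The vector labels were checked by the level of the introduced genes. RUVBL1 stood at 2665 TPM in A62T cells with DMSO against 99.9 TPM in EV and 90.5 TPM in dF109 cells, and RUVBL2 stood at 1607 TPM in dF109 cells against 123 and 119 TPM in the other two. In the 3 EV libraries with CB-6644, RUVBL1 itself was at 74.5, 71.4 and 75.2 TPM. TPM keep no sequencing depth. Genes detected at 1 TPM or above numbered 12394 to 12693 in the EV CB-6644 libraries and 11767 to 12009 in the DMSO libraries, so more genes were detected with the compound, and detection and depth cannot be told apart. On the first principal component, with 62.1% of the variance, the EV CB-6644 libraries lay at 28.6 to 39.7, the DMSO libraries at -30.6 to -13.2 and the variant libraries with CB-6644 at -10.8 to 0.77. Among the DMSO libraries the EV one was closest to the treated cells, at -13.2. For some genes and groups whose values moved with it alone as control, both values are given. Values given once may also depend on the control. Epithelial markers fitted the label: all 10 (EPCAM, keratins and others) were tested, and 8 of the 10 markers of classical identity were. Of 6 markers of basal identity 3 were tested. The summed levels in the 6 libraries were 1265 to 2249 TPM for the classical and 19.3 to 31.6 TPM for the basal markers. Most markers of other cell types were too low to be tested, with the fibroblast marker LUM as the main exception. None of 5 endothelial, 6 acinar or 5 islet markers reached the level for testing, and the summed TPM were at most 1.44, 2.45 and 0.234 in any of the 6 libraries. Of 7 fibroblast markers LUM alone was tested, at 97.8 to 103 TPM with CB-6644 and 117 to 137 TPM with DMSO. Of 6 leukocyte markers PTPRC was at 2.21 to 2.70 TPM with CB-6644 and 0.984 to 1.63 TPM with DMSO, and CD14 was at 3.35 to 4.04 TPM and 3.88 to 8.12 TPM.

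With CB-6644, 7955 of 12296 genes (64.7%) passed an adjusted p of 0.05 in limma's moderated test on log2(TPM + 1), of which 5850 were higher and 2105 lower. As shares of all genes tested these were 47.6% and 17.1%, the background against which each gene group below is read. Most changes were small. Only 490 genes (3.99%) were called and higher by at least 2-fold and 127 (1.03%) lower by at least 2-fold, and 16 and 4 genes passed 4-fold. All 3 EV CB-6644 libraries lay above all 3 DMSO libraries for 5765 genes (46.9%) and below them for 2137 (17.4%). The split between higher and lower depends on how the libraries are set to a common scale. The median gene was 0.195 higher on the log2 scale with TPM as deposited and 0.055 lower after scaling by the median of ratios, a shift of 0.25, and the share of calls that were higher went from 73.5% to 41.8%, with 3198 genes higher (26.0% of those tested) and 4461 lower (36.3%). TPM is a share of each library, so whether most messages rose or the most abundant fell cannot be told from these values. For that reason the groups below are given with counts on both scales. With the EV DMSO library alone as control, 6047 genes passed, 3784 higher and 2263 lower.

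**Figure D1:**
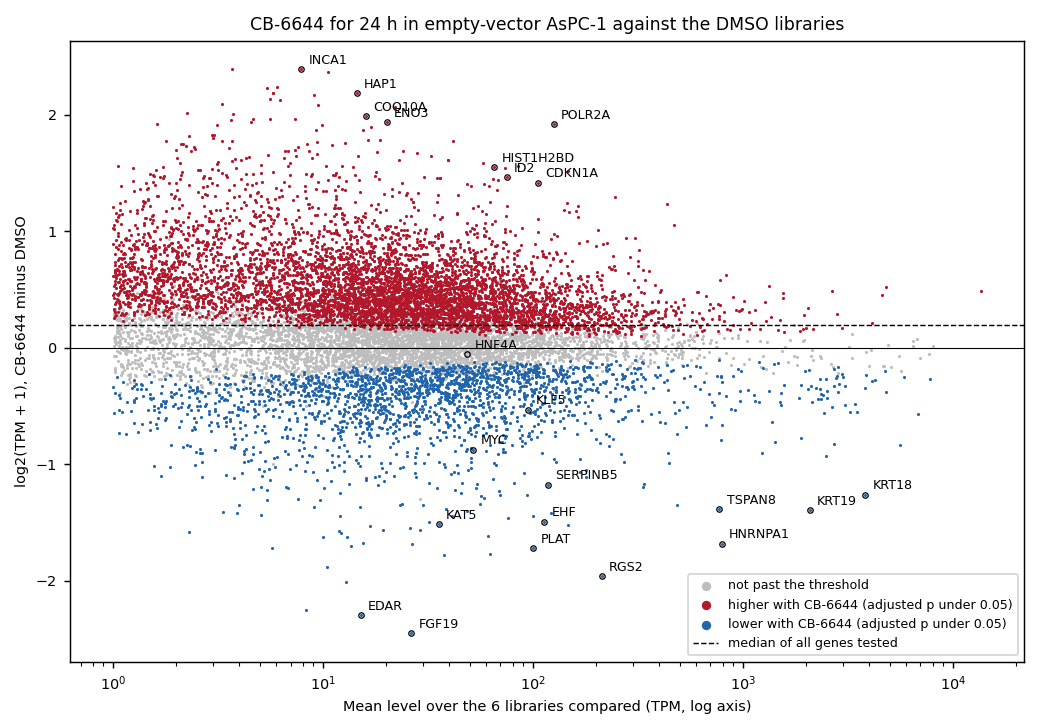
Change with CB-6644 in EV AsPC-1 (log2(TPM + 1), CB-6644 minus DMSO) against the mean level of each of the 12296 genes over the 6 libraries (TPM, log axis); red and blue points passed an adjusted p of 0.05, and the dashed line is the median gene at 0.195. FGF19 and EDAR lie lowest, and the abundant keratins KRT18 and KRT19 lie far to the right among the falls.

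The 12 largest rises included muscle isoforms of glycolytic enzymes, histones and a mucin. INCA1, which encodes an inhibitor of cyclin-dependent kinases that binds cyclin A1, stood at 12.4, 11.9 and 17.2 TPM in the 3 EV CB-6644 libraries and at 2.95, 1.59 and 1.15 TPM in the DMSO libraries of EV, A62T and dF109 cells, a difference of 2.39 ± 0.22 (SE, adjusted p = 2.42e-06) on the log2(TPM + 1) scale. PGAM2, the muscle form of the glycolytic enzyme phosphoglycerate mutase, stood at 15.1, 14.4 and 25.7 TPM against 4.19, 2.28 and 1.85 TPM and rose by 2.36 ± 0.24 (SE, adjusted p = 4.34e-06). Values after ± are standard errors of the fit throughout. In both genes treated replicate 3 was the highest, and the lowest treated library was still above every control. The neuronal pentraxin receptor NPTXR was at 8.95, 9.58 and 13.5 TPM against 1.7, 1.5 and 1.13 TPM, a rise of 2.24 ± 0.15, and HAP1, the huntingtin-associated protein, was at 21.7, 22.7 and 28.9 TPM against 4.84, 3.92 and 4.95 TPM, a rise of 2.18 ± 0.12. HIST2H3A and HIST2H3C, near-identical copies of a histone H3 gene that carried the same value in every library and so count as 1 measurement, were at 7.92, 9.78 and 12.7 TPM against 1.86, 1.03 and 1.42 TPM and rose by 2.18 ± 0.16 (SE, adjusted p = 3.23e-07). The transmembrane mucin MUC20 was at 14, 14.9 and 18.9 TPM against 3.26, 3.2 and 2.45 TPM and rose by 2.09 ± 0.14 (SE, adjusted p = 2.64e-07). The other rises of the 12 largest were C2orf48 at 2.17, the histone H2B gene HIST3H2BB at 2.13, COQ10A, whose product binds coenzyme Q in mitochondria, at 1.99, ADAMTSL4, a secreted protein that binds fibrillin, at 1.96, and ENO3, the muscle form of enolase, at 1.93. ENO3 reached the highest level of the 12, at 30.8, 28.9 and 37.3 TPM with CB-6644 against 10.01, 7.86 and 5.67 TPM, so the largest rises were of genes at low or moderate levels.

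The 12 largest falls included a secreted growth factor, a receptor, a claudin and a splicing factor. FGF19, an endocrine growth factor that controls bile acid synthesis, stood at 6.85, 7.3 and 8.01 TPM with CB-6644 and at 40.03, 42.3 and 53 TPM in the DMSO libraries, a change of -2.45 ± 0.094 (SE, adjusted p = 4.54e-09). EDAR, the receptor for ectodysplasin in skin appendages, stood at 4.53, 3.94 and 4.74 TPM against 20.7, 28.4 and 28.2 TPM and changed by -2.297 ± 0.10 (SE, adjusted p = 1.09e-08). In both genes all 3 treated libraries lay under all 3 controls. PRR15L was at 2.35, 1.58 and 2.45 TPM against 9.8, 12.8 and 20.7 TPM, a change of -2.25 ± 0.19. PPP1R1B (DARPP-32), an inhibitor of protein phosphatase 1, was at 5.08, 4.04 and 4.1 TPM against 14.7, 22.4 and 27 TPM, a change of -2.01 ± 0.16. With the EV DMSO library alone as control, PRR15L changed by -1.80 and PPP1R1B by -1.55. RGS2, which shortens G protein signals, was at 85.5, 88.2 and 85.4 TPM against 318, 339 and 363 TPM, a change of -1.96 ± 0.055 (SE, adjusted p = 6.98e-10). The sphingosine-1-phosphate transporter SPNS2 changed by -1.88, the pore-forming claudin CLDN2 by -1.77, the secreted kinase PKDCC by -1.77 and the nuclear receptor NR0B2 (SHP), which restrains bile acid synthesis, by -1.701. PLAT, tissue plasminogen activator, was at 44.9, 47.5 and 45.7 TPM against 135, 159 and 169 TPM and changed by -1.72 ± 0.069 (SE, adjusted p = 5.14e-09). DEPTOR, an inhibitor of mTOR, was at 11.3, 10.7 and 12.6 TPM against 24.2, 44.6 and 55.7 TPM and changed by -1.69 ± 0.21, or by -1.01 with the EV DMSO library alone. HNRNPA1, an RNA-binding splicing factor with many processed pseudogenes and therefore an uncertain value under pseudo-alignment, was at 392, 387 and 345 TPM against 1064, 1314 and 1244 TPM and changed by -1.68 ± 0.072 (SE, adjusted p = 8.21e-09). After scaling these 12 genes changed by -2.702 (FGF19) to -1.94 (DEPTOR).

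**Figure D2:**
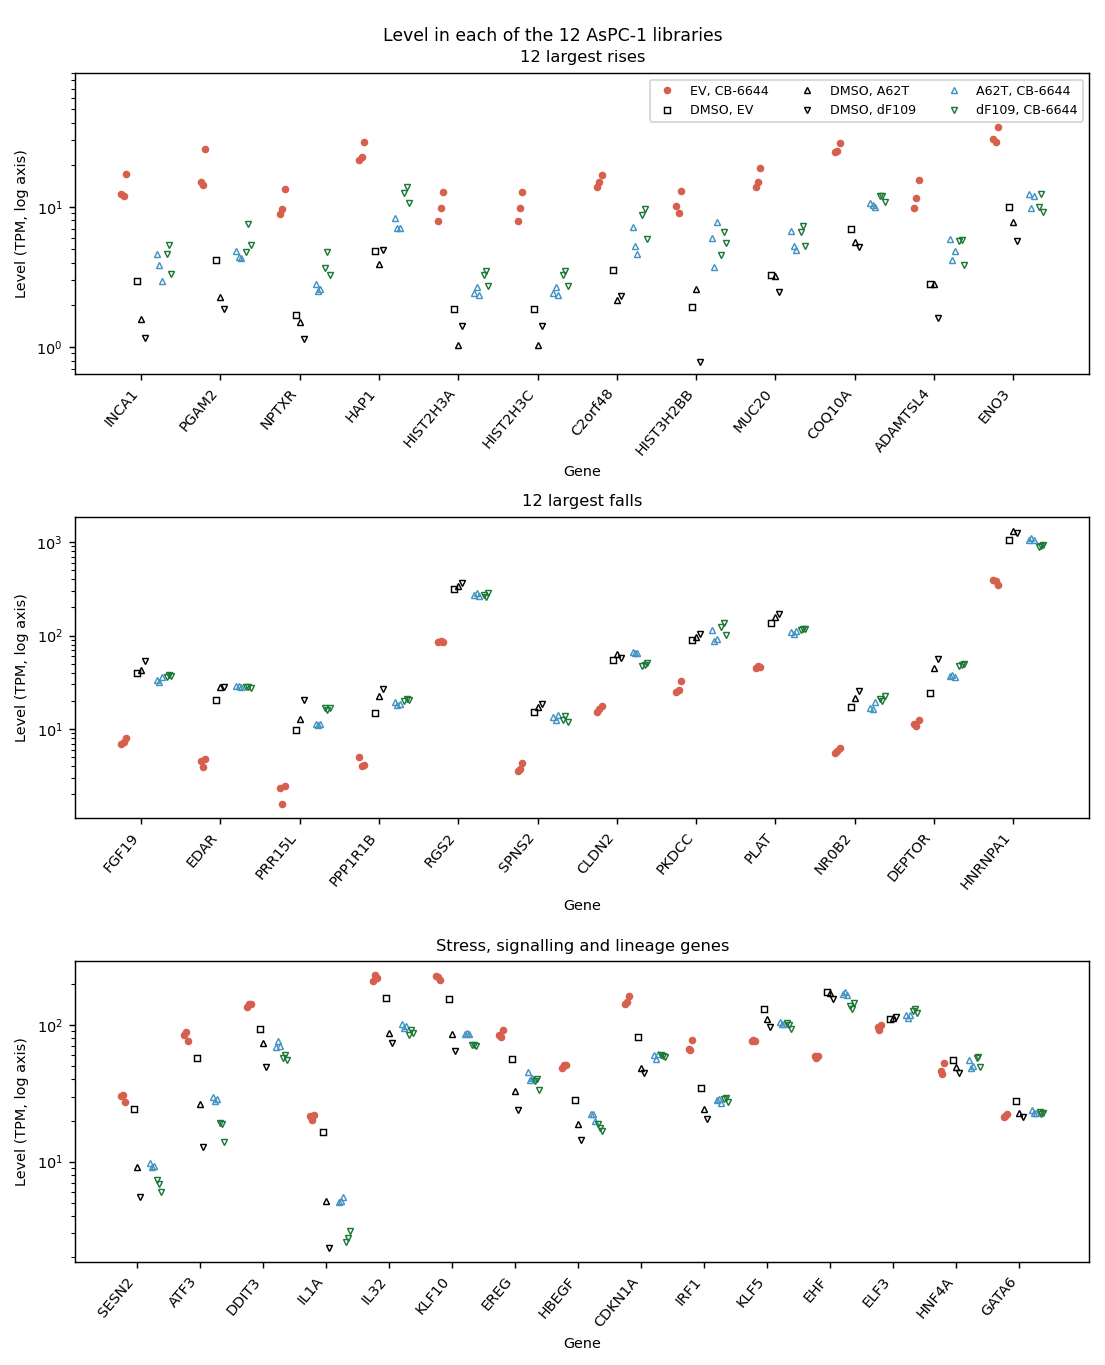
TPM (log axis) of the 12 largest rises, the 12 largest falls and selected stress, signalling and lineage genes in each of the 12 AsPC-1 libraries; filled circles are EV cells with CB-6644, black open symbols the 3 DMSO libraries and coloured triangles the variant cells with CB-6644. In the upper panels the filled circles lie apart from all other libraries, and in the lower panel the EV DMSO square is the DMSO library nearest to the treated cells for SESN2, ATF3, IL1A and KLF10.

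Among the direct partners of the ring, several TIP60 and INO80 subunits fell, while the count for R2TP genes depended on the scale. KAT5, the acetyltransferase of the TIP60 complex, was at 18.3, 18.4 and 17.1 TPM in the treated libraries and 53.2, 56.1 and 50.1 TPM in the controls, a change of -1.52 ± 0.059 (SE, adjusted p = 4.79e-09). The INO80 and MLL complex subunit MCRS1 was at 39.3, 40.6 and 41.4 TPM against 102, 98 and 95.3 TPM, a change of -1.26 ± 0.051 (SE, adjusted p = 5.27e-09). ING3, a histone reader of TIP60, was at 8.27, 7.58 and 7.51 TPM against 17.4, 16 and 13.9 TPM (-0.92 ± 0.081), and YEATS4, shared by TIP60 and SRCAP, at 13.7, 12.1 and 12.2 TPM against 24.1, 20.5 and 19.1 TPM (-0.70 ± 0.082). For these 4 genes each treated library lay under each control. Of 33 tested subunits of INO80, SRCAP and TIP60, 5 rose and 13 fell, and 4 and 25 did after scaling, with a median of -0.07 against 0.195 for all genes. Of 21 genes of R2TP, the larger PAQosome and its adaptors, 9 rose and 3 fell, a direction that turned with scaling to 4 and 8. PIH1D1, the R2TP subunit that recognises phosphorylated clients, was at 74.3, 75.2 and 74.3 TPM against 51.1, 51.7 and 50.7 TPM and rose by 0.54 ± 0.05 (SE, adjusted p = 2.33e-06). It also rose after scaling, by 0.27.

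The clients of the co-chaperone were measured as messages, not as assembled complexes. Of 6 PIKK kinase genes 4 rose and 0 fell, which became 1 and 1 after scaling and 0 and 0 with the EV DMSO library alone as control. RNA polymerase II subunits rose as deposited, 13 of 17 with 1 fall, and were even after scaling, with 3 rises and 3 falls. POLR2A, its largest subunit, was at 162, 179 and 251 TPM against 75.4, 48.2 and 35.6 TPM and rose by 1.92 ± 0.30 (SE, adjusted p = 0.000135), and by 1.65 after scaling. Against the EV DMSO library alone POLR2A rose by 1.35. POLR2L, a small shared subunit, was at 389, 425 and 415 TPM against 250.2, 212 and 225 TPM and rose by 0.84 ± 0.073 (SE, adjusted p = 1.47e-06). Treated and control libraries of both genes did not overlap. Of 15 box C/D and H/ACA snoRNP proteins 2 rose and 4 fell (0 and 9 after scaling). Among them DKC1, the pseudouridine synthase of H/ACA snoRNPs, was at 82.2, 78.5 and 84.9 TPM against 126, 128 and 135 TPM (-0.66 ± 0.049) and FBL, the methyltransferase of box C/D snoRNPs, at 275, 263 and 245 TPM against 356, 362 and 389 TPM (-0.50 ± 0.049).

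Genes of ribosome production fell on both scales. Of 39 ribosome biogenesis factors 25 fell and 1 rose, with a median of -0.29, and 36 and 0 did after scaling. EMG1, a methyltransferase of 18S rRNA, was at 51.5, 53.3 and 49 TPM against 105, 92.5 and 91.5 TPM (-0.90 ± 0.058), and RRS1, which joins the 5S particle to the large subunit, at 19.9, 18.7 and 20.2 TPM against 40.03, 33.1 and 36.4 TPM (-0.86 ± 0.073). Nucleophosmin NPM1, which has processed pseudogenes, was at 1455, 1430.2 and 1318 TPM against 2378, 2318 and 2470.5 TPM (-0.77 ± 0.055). Of 78 cytosolic ribosomal protein genes 49 fell and 2 rose, with a median of -0.23, and 69 and 0 did after scaling. RPS6, a small subunit protein, was at 1122, 1108 and 999 TPM against 1439.8, 1756 and 1837 TPM (-0.63 ± 0.08), and RPL23, a large subunit protein, at 2056, 1974 and 1851 TPM against 2419, 3052 and 3249.9 TPM (-0.56 ± 0.093). The ribosomal protein count rests on the choice of control: against the EV DMSO library alone 13 fell and 4 rose, with a median of -0.048, RPS6 changed by -0.42 and RPL23 by -0.30. These genes also have pseudogenes that share reads. With that control 28 biogenesis factors fell and 1 rose.

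Protein folding genes moved by small amounts. Of 14 chaperonin and prefoldin subunits 7 fell and 1 rose (11 and 0 after scaling), among them PFDN4 (-0.66 ± 0.075) and CCT2 (-0.35 ± 0.059). Of 8 heat shock proteins tested, 2 rose and 3 fell (1 and 6 after scaling). HSP90AB1, the constitutive HSP90 with which R2TP works, was at 822, 813 and 809 TPM against 1150.1, 1121 and 1089 TPM (-0.46 ± 0.044), and the co-chaperone BAG3 at 61.5, 62.2 and 71.5 TPM against 49.8, 39.3 and 40.3 TPM (0.59 ± 0.089, or 0.37 with the EV DMSO library alone). Of 32 proteasome subunits 6 rose and 4 fell, and 0 and 23 did after scaling. Of 19 proteins of spliceosome assembly 6 rose and 1 fell, a direction that turned with scaling to 0 and 12.

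Lineage factors fell unevenly. EHF, an ETS factor of glandular epithelium, was at 59.5, 57.5 and 59.6 TPM with CB-6644 against 175, 173 and 154 TPM and changed by -1.49 ± 0.056 (SE, adjusted p = 4.44e-09). PPARG, a nuclear receptor of differentiated epithelium and fat, was at 27.1, 23.4 and 24.2 TPM against 49.96, 51.8 and 53.2 TPM and changed by -1.03 ± 0.073 (SE, adjusted p = 3.23e-07). KLF5, the factor at the centre of the study, was at 77.1, 77.5 and 77 TPM against 131, 110.3 and 97 TPM and changed by -0.53 ± 0.083 (SE, adjusted p = 0.000139), and the 3 treated libraries were almost equal and under every control. ELF3, another epithelial ETS factor, was at 96.2, 92.4 and 101 TPM against 112, 113 and 116 TPM (-0.23 ± 0.048, adjusted p = 0.00123), a separation of groups with a small difference. The xenobiotic receptor NR1I2 (PXR) was at 16.8, 18 and 20.5 TPM against 23.4, 30.6 and 30.8 TPM (-0.58 ± 0.10, or -0.33 with the EV DMSO library alone). HNF4A, a master factor of endodermal epithelium, was at 46, 44 and 53.2 TPM against 55.7, 49.2 and 44.3 TPM, and the groups overlapped (-0.057 ± 0.097, adjusted p = 0.622). GATA6, which marks classical tumours, was at 21.3, 21.7 and 22.4 TPM against 28, 22.8 and 21.2 TPM and also overlapped (-0.12 ± 0.084, adjusted p = 0.215). Both passed after scaling, at -0.32 and -0.38, and GATA6 also passed against the EV DMSO library alone (-0.35) and without the dF109 DMSO library (-0.20). KLF4, a factor of gut differentiation, went the other way at 55.6, 59 and 57.9 TPM against 47.6, 27.6 and 21.4 TPM (0.89 ± 0.20, adjusted p = 0.00193), but its EV DMSO value is close to the treated ones, and against that library alone it changed by 0.27 (adjusted p = 0.0683). Of 19 lineage factors tested 3 rose and 10 fell (3 and 14 after scaling), with a median of -0.23.

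Keratins and surface proteins of epithelium fell at very high levels. KRT19, a ductal keratin, was at 1167, 1186 and 1075 TPM against 2894, 2955 and 3175 TPM and changed by -1.396 ± 0.056 (SE, adjusted p = 5.14e-09). KRT18 was at 2385, 2304 and 2058 TPM against 4932, 5291 and 5972 TPM (-1.26 ± 0.073) and its partner KRT8 at 4202, 4116 and 3799 TPM against 7061, 6856 and 7670.1 TPM (-0.83 ± 0.057). The simple keratins KRT8 and KRT18 have many processed pseudogenes, so their values are uncertain under pseudo-alignment, and every treated library was below every control. The stratified keratins KRT16 and KRT15 changed by -1.498 and -1.37. Of 10 keratins tested 6 fell and 1 rose, with a median of -1.05, and 7 and 0 did after scaling. Of 24 adhesion molecules 10 fell and 4 rose (18 and 0 after scaling). ITGB4, the hemidesmosome integrin, was at 193, 202 and 226 TPM against 412, 583 and 419 TPM (-1.17 ± 0.13), the desmosome protein PKP3 at 47.8, 51.7 and 51.2 TPM against 99.6, 95 and 88.6 TPM (-0.90 ± 0.076) and CEACAM6 at 396, 385 and 369 TPM against 552, 583 and 563 TPM (-0.56 ± 0.051). The tetraspanin TSPAN8, a classical marker, was at 449, 413 and 389.7 TPM against 758, 1212 and 1412 TPM (-1.39 ± 0.16, or -0.86 with the EV DMSO library alone). Over the 10 epithelial markers the summed level was 8322 to 9125 TPM with CB-6644 and 16490 to 18570 TPM with DMSO. In these bulk libraries fewer cells with a message and less of it per cell cannot be told apart.

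Gut-type surface genes were split. MYO1A, the brush border myosin, was at 27.4, 27.8 and 28.9 TPM against 59.7, 63.4 and 57 TPM (-1.07 ± 0.057, adjusted p = 3.72e-08), while CDHR2, a cadherin that links microvilli, was at 134, 139 and 162 TPM against 91.5, 90.8 and 70.5 TPM (0.78 ± 0.11, adjusted p = 8.75e-05). Of 18 brush border genes 7 rose and 4 fell, a direction that turned with scaling to 6 and 9. GPA33, an intestinal surface antigen, was at 41, 37.6 and 39.5 TPM against 84.1, 116 and 136 TPM (-1.46 ± 0.12, or -1.08 with the EV DMSO library alone). Of 14 mucins and secreted mucosal proteins 3 rose and 2 fell (2 and 7 after scaling). MUC1, the epithelial membrane mucin, was at 12.6, 13.7 and 18.9 TPM against 39.7, 17.6 and 15.5 TPM and did not pass (-0.55 ± 0.33, adjusted p = 0.157), and the DMSO libraries themselves ran from 15.5 to 39.7 TPM. It passed after scaling (-0.81) and against the EV DMSO library alone (-1.36). FA2H, a fatty acid hydroxylase, was at 26, 28 and 33.4 TPM against 26.2, 21.4 and 17.4 TPM. It passed narrowly (0.42 ± 0.16, adjusted p = 0.0318) with overlapping groups, and did not pass after scaling, against the EV DMSO library alone, or without A62T DMSO (0.42), dF109 DMSO (0.28), EV CB-6644 replicate 2 (0.45) or EV CB-6644 replicate 3 (0.32).

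Genes of the plasminogen system, serpins and proteases fell more often than they rose. SERPINB5 (maspin), an epithelial serpin, was at 75, 70.8 and 70.1 TPM against 182, 164 and 147 TPM (-1.18 ± 0.066, adjusted p = 5.4e-08). F3, tissue factor, was at 30.5, 31.6 and 37.5 TPM against 83.7, 97.2 and 68.4 TPM (-1.29 ± 0.12), and MMP7 (matrilysin) at 193, 180.4 and 171 TPM against 310.4, 402 and 372 TPM (-0.98 ± 0.078). Together with PLAT these belong to a list of 24 tested genes of the plasminogen system, serpins and proteases, of which 14 fell and 7 rose (17 and 5 after scaling), with a median of -0.28.

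Gene lists supplied with the study group genes by tumour subtype and by KLF5. Of 143 tested genes of the classical tumour signature 35 rose and 52 fell, with a median of -0.15, and 18 and 92 did after scaling. Of 119 genes of the basal-like signature 39 rose and 33 fell, with a median of 0.049, a direction that turned with scaling to 23 and 57. LEMD1, of the basal-like signature, was at 17.1, 16 and 15.5 TPM against 2.93, 4.46 and 3.48 TPM (1.91 ± 0.13) and the Wnt antagonist DKK1, of the same signature, at 74.9, 75.5 and 73.4 TPM against 169, 258 and 231 TPM (-1.52 ± 0.11). The plakin EPPK1, of the classical signature, was at 15, 17.9 and 23.9 TPM against 7.89, 5.4 and 4.15 TPM (1.56 ± 0.22). With the EV DMSO library alone as control, DKK1 changed by -1.17 and EPPK1 by 1.14. LMO4, a LIM-only cofactor of transcription in the classical list, was at 29.8, 29.8 and 29.1 TPM against 88.9, 90.7 and 98.9 TPM (-1.62 ± 0.056, adjusted p = 2.81e-09). Of 245 genes that the study listed as lower after KLF5 knockout in AsPC-1 RNA-seq, 46 rose and 109 fell, and 22 and 176 did after scaling. Of 68 genes listed as direct KLF5 targets 12 rose and 27 fell, and 5 and 42 did after scaling. The integrin activator FERMT1, of that list, was at 53, 52.3 and 53.1 TPM against 156, 164 and 121 TPM (-1.45 ± 0.084). Of 70 genes listed as lower in new RNA with CB-6644 (SLAM-seq, which labels freshly made RNA), 11 rose and 33 fell, and 6 and 44 did after scaling. These 3 lists were chosen by the study in AsPC-1 cells under related treatments, so their direction is not independent evidence. In all 5 lists, both subtype signatures included, the share that fell was above the 17.1% of all genes.

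**Figure D3:**
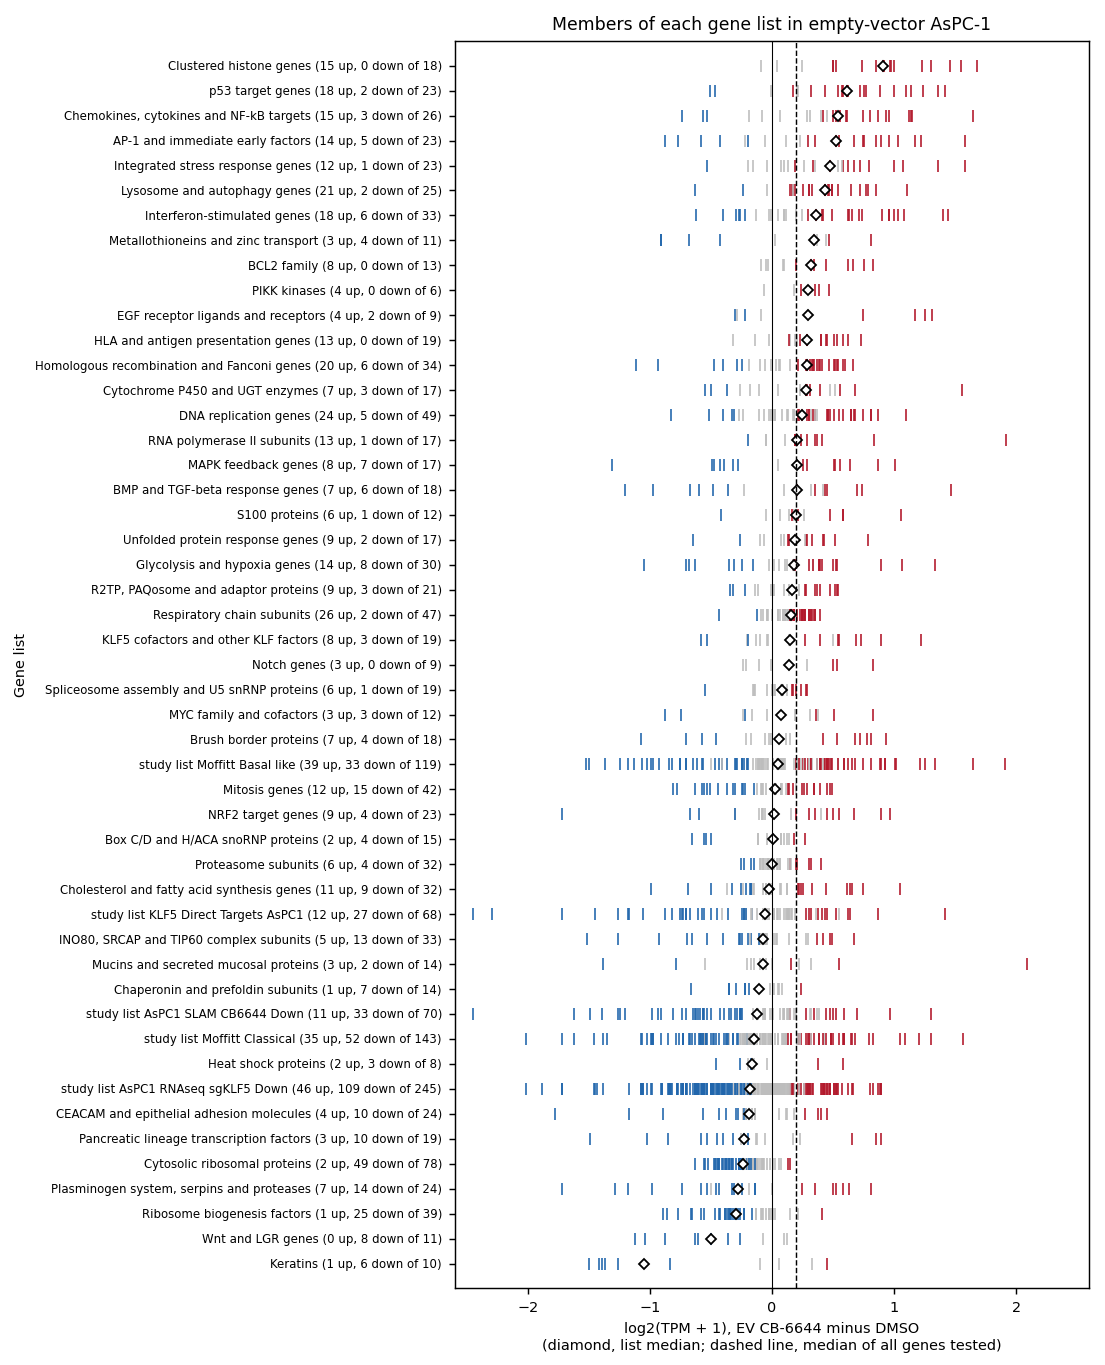
Difference of every tested member of each gene list in EV AsPC-1 (log2(TPM + 1), CB-6644 minus DMSO); red and blue ticks passed an adjusted p of 0.05, grey ticks did not, the diamond is the list's median, the dashed line the median of all genes at 0.195, and labels give the numbers up and down among those tested. Clustered histone genes lie highest with a median of 0.91 and keratins lowest with a median of -1.05.

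Most tested messages of the Wnt and LGR list fell, and Wnt signalling itself was not measured. Of 11 Wnt and LGR genes tested 8 fell and 0 rose, the same counts as after scaling, with a median of -0.50. MYC, a driver of ribosome production and growth that Wnt signalling induces, was at 34.5, 35.3 and 39.4 TPM against 72.4, 70.8 and 59.9 TPM (-0.87 ± 0.086, adjusted p = 3.57e-06). The R-spondin receptors LGR5 and LGR4 were at 8.85, 9.14 and 9.79 TPM against 13.8, 14.6 and 16.5 TPM (-0.63 ± 0.076) and at 41.5, 41.2 and 43.6 TPM against 67.9, 61.9 and 64.2 TPM (-0.61 ± 0.051). Treated and control libraries of these 3 genes did not overlap. In the BMP and TGF-beta group, 7 of 18 rose and 6 fell, which turned with scaling to 5 and 7. The ligand BMP4 was at 33.1, 29.9 and 33.3 TPM against 69, 77.1 and 80.1 TPM (-1.21 ± 0.063, adjusted p = 3.4e-08), while ID2, an inhibitor of helix-loop-helix factors, was at 109, 109 and 112 TPM against 47.3, 36.5 and 35 TPM (1.46 ± 0.086, adjusted p = 7.92e-08).

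Most p53 target genes tested rose, and the count depends on which DMSO library is the control. CDKN1A (p21), the cell cycle inhibitor downstream of p53, was at 144, 149 and 164 TPM with CB-6644 and 81.9, 48.5 and 44.5 TPM with DMSO (1.42 ± 0.16, adjusted p = 1.23e-05), and rose by 0.88 against the EV DMSO library alone. The death receptor TNFRSF10B was at 192, 191 and 227 TPM against 102, 84.6 and 71.9 TPM (1.24 ± 0.11, adjusted p = 1.27e-06), and the secreted stress factor GDF15 at 15.9, 17.9 and 18.8 TPM against 9.37, 8.62 and 4.98 TPM (1.14 ± 0.17). Of 23 p53 target genes 18 rose and 2 fell, 16 and 3 after scaling and 14 and 2 against the EV DMSO library alone, with a median of 0.61. Of 13 genes of the BCL2 family 8 rose and 0 fell (4 and 3 after scaling). They include the death-promoting BCL2L11 (BIM) at 19.6, 21.1 and 25.5 TPM against 13.7, 12.3 and 10.02 TPM (0.83 ± 0.13) and the survival factor BCL2L1 (BCL-XL) at 293, 299 and 316 TPM against 220.2, 187 and 167 TPM (0.67 ± 0.08).

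The integrated stress response is the program in which phosphorylated eIF2 lets ATF4 be translated, and ATF4 then drives ATF3, DDIT3 and amino acid genes. ATF3 was at 84.9, 88.6 and 76.6 TPM with CB-6644 against 57.2, 26.5 and 12.8 TPM (1.58 ± 0.35, adjusted p = 0.00178), DDIT3 (CHOP) at 136, 142 and 142 TPM against 93.2, 74.1 and 49.1 TPM (1.00 ± 0.16) and PPP1R15A (GADD34), which ends the response, at 105, 105 and 108 TPM against 79.2, 61.9 and 44.9 TPM (0.80 ± 0.15). SESN2, a stress-induced brake on mTORC1, was at 30.1, 31 and 27.3 TPM against 24.3, 9.12 and 5.47 TPM (1.36 ± 0.34). In all 4 the treated libraries were highest, the EV DMSO library came next and the dF109 DMSO library was lowest. Against the EV DMSO library alone the differences were 0.53, 0.58, 0.41 and, for SESN2, 0.26 (adjusted p = 0.0648). Of 23 genes of the response 12 rose and 1 fell, 10 and 5 after scaling, but 8 and 6 against the EV DMSO library alone, where the median went from 0.48 to -0.027. ATF4-type elements were looked for as the letters TGATGNAA on both strands, from 250 bases before to 50 after 1 RefSeq start site per gene. They were in 5 of the 17 windows found for this list (29.4%) and in 1.62% of the windows of all genes tested. The ATF3 window is shown because it is the response gene with the largest rise and holds 1 such match, in capitals. Other start sites of ATF3 were not searched. The window is in the plus strand of GRCh38.p14, chr1:212565157-212565456.
ATF3: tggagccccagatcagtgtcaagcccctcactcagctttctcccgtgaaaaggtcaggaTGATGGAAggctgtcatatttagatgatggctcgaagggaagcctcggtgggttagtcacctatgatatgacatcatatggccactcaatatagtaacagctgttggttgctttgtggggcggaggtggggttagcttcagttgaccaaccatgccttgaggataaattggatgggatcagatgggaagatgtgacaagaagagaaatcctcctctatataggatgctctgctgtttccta

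The unfolded protein response, which senses the endoplasmic reticulum, was mixed. Of 17 genes 9 rose and 2 fell (4 and 4 after scaling). The sensor ERN1 (IRE1) was at 11.3, 11.4 and 14.7 TPM against 8.89, 6.61 and 5.16 TPM (0.79 ± 0.16, or 0.44 against the EV DMSO library alone), and the lumenal chaperone CALR at 332, 330.3 and 331 TPM against 561, 496 and 504 TPM (-0.65 ± 0.05).

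Of 9 ligands and receptors of the EGF receptor family 4 rose and 2 fell (4 and 4 after scaling), shares near the 47.6% and 17.1% of all genes. The 4 that rose were ligands. HBEGF was at 48.9, 51 and 51.1 TPM against 28.1, 18.9 and 14.3 TPM (1.31 ± 0.17), EREG at 84.6, 81.9 and 92.8 TPM against 56.8, 32.9 and 24.1 TPM (1.25 ± 0.21), TGFA at 76.9, 76.7 and 83.9 TPM against 49.8, 31.9 and 25.7 TPM (1.17 ± 0.16) and AREG at 166, 166 and 165 TPM against 148, 94.9 and 67.8 TPM (0.74 ± 0.19). In each of these ligand genes all treated libraries were above all controls and the EV DMSO library was the highest control, so the differences against it alone were 0.82, 0.60, 0.66 and, for AREG, 0.16 (adjusted p = 0.0781). AREG rose by 0.48 when the dF109 DMSO library was left out. The AP-1 and immediate early group had 14 rises and 5 falls of 23 (12 and 7 after scaling, 9 and 6 against the EV DMSO library alone). In it KLF10, a TGF-beta-induced repressor, was at 231, 227 and 215 TPM against 156, 86.8 and 64.5 TPM (1.22 ± 0.21, or 0.52 against EV DMSO), and the AP-1 subunit FOSL1 at 181, 192 and 228 TPM against 150.2, 79.7 and 56.9 TPM (1.17 ± 0.26, or 0.41 with an adjusted p of 0.123 against EV DMSO). Among MAPK feedback genes 8 of 17 rose and 7 fell, turned by scaling to 6 and 8. Cyclin D1 (CCND1) was at 257, 271 and 287 TPM against 151, 133 and 120.3 TPM (1.01 ± 0.071, adjusted p = 2.94e-07) while the feedback inhibitor SPRY1 was at 5.24, 4.88 and 5.27 TPM against 12.5, 13.7 and 16.5 TPM (-1.31 ± 0.094, adjusted p = 3.3e-07).

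Inflammatory and interferon genes held both rises and falls. Their rises are read against 47.6% of all genes as deposited and 26.0% after scaling. The cytokine IL1A was at 21.5, 20.2 and 22.1 TPM against 16.6, 5.15 and 2.33 TPM (1.65 ± 0.40), IL32 at 210.3, 233 and 222 TPM against 159, 87.2 and 74.5 TPM (1.12 ± 0.19) and the NF-kB subunit NFKB2 at 81.2, 82.6 and 92.4 TPM against 66.1, 46.6 and 31.9 TPM (0.87 ± 0.18). Against EV DMSO alone they differed by 0.34, 0.48 and 0.36. Of 26 chemokines, cytokines and NF-kB targets 15 rose and 3 fell (13 and 6 after scaling), but 8 and 4 did against EV DMSO alone. Of 33 interferon-stimulated genes 18 rose and 6 fell (15 and 10 after scaling), and 14 and 8 did against EV DMSO alone. Among them IFI27 was at 19, 21.5 and 26 TPM against 8.32, 9.16 and 5.41 TPM (1.44 ± 0.17), the transcription factor IRF1 at 66.8, 65.8 and 78.1 TPM against 34.7, 24.3 and 20.4 TPM (1.403 ± 0.14, adjusted p = 3.93e-06) and the RNA sensor IFIH1 (MDA5) at 21.2, 21.6 and 20.2 TPM against 13.6, 8.36 and 7.24 TPM (1.08 ± 0.16, or 0.59 against EV DMSO). Of the antigen presentation genes 13 of 19 rose and 0 fell, 12 and 1 did against EV DMSO alone, and 7 and 2 did after scaling. The peptide transporter TAP1 was at 76.9, 78.6 and 82.7 TPM against 51.4, 47.3 and 44.1 TPM (0.73 ± 0.059). The leukocyte marker PTPRC was under 3 TPM in all 6 libraries, and its part in these values was not tested.

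Replication-dependent histone genes were the list with the highest median. These genes are packed in clusters and their messages mostly lack a poly-A tail, so a poly-A library holds only the part that carries one. Of 18 tested, 15 rose and 0 fell, with a median of 0.91, and 12 and 1 did after scaling, 14 and 0 against EV DMSO alone. HIST1H2BD was at 93.3, 93.9 and 106 TPM against 24.9, 34.7 and 40.2 TPM (1.55 ± 0.15, adjusted p = 3.55e-06), HIST1H2BC at 23.6, 27.3 and 31.6 TPM against 10.2, 10.9 and 4.21 TPM (1.68 ± 0.26) and HIST2H2BE at 10.4, 11.5 and 15.1 TPM against 4.07, 5.09 and 4.72 TPM (1.23 ± 0.12), all 3 of histone H2B. HIST2H4A, of histone H4, was at 43.7, 58.6 and 58.1 TPM against 15, 24.3 and 17.7 TPM (1.46 ± 0.16). The lowest treated library was above the highest control in each. Copies of 1 histone type share sequence, so single genes of a cluster are uncertain. Promoters of this class carry CCAAT boxes, bound by NF-Y. The letters CCAAT on either strand stood in 12 of the 15 RefSeq windows found for the list (80%) and in 36.8% of all windows, 37.7% of those of genes that rose and 37% of those of genes that fell. The 3 windows shown are examples from the histone genes named here, from 250 bases before to 50 after the start in GRCh38.p14, with matches in capitals (ATTGG is CCAAT on the other strand). They are chr1:149852358-149852657 (plus strand, RefSeq H3C15) for HIST2H3A, chr6:26157871-26158170 (plus strand, H2BC5) for HIST1H2BD and chr1:149886633-149886932 (minus strand, H2BC21) for HIST2H2BE.
HIST2H3A: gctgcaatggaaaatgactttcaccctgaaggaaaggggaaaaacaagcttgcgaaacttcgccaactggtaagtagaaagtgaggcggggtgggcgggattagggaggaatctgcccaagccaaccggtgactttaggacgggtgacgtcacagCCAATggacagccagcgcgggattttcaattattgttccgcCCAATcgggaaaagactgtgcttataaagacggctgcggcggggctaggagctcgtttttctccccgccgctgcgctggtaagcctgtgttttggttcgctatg
HIST1H2BD: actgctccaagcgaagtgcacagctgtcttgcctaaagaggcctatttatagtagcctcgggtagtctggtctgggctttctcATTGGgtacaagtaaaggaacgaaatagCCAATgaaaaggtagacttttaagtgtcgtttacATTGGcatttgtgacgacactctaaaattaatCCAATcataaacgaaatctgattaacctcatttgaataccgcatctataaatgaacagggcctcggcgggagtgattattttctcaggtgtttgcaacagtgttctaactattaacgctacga
HIST2H2BE: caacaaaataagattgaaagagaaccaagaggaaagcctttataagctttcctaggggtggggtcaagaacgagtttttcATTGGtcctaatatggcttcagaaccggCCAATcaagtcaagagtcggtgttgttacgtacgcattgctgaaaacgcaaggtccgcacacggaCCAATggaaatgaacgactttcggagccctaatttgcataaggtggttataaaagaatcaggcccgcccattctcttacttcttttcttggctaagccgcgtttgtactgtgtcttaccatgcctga

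HIST2H3A holds 2 matches, HIST1H2BD 4 and HIST2H2BE 3. Among other motifs GGGNGNGGC, the letters of a KLF-type GC box, was in 46% of 9948 windows, 46.5% of those of genes that rose and 43.4% of those that fell. It was in 26 of 51 windows of the study's direct KLF5 targets (51%). The AP-1 letters TGANTCA were in 4.53%, 4.77% and 3.92%, and the E-box CACGTG in 10.1%, 9.58% and 12.5% of all, risen and fallen genes. A match is a description of these letters and not a bound site.

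Cell cycle genes did not move as 1 block. Of 49 DNA replication genes 24 rose and 5 fell, a direction that turned with scaling to 14 and 16. GINS4, a subunit of the replicative helicase, was at 20.8, 19.2 and 23.1 TPM against 11.7, 8.78 and 7.71 TPM (1.0997 ± 0.15), while RRM2, the regulated subunit of ribonucleotide reductase, was at 43.2, 43.4 and 45.1 TPM against 103, 72.2 and 65.6 TPM (-0.83 ± 0.12). Of 42 mitosis genes 12 rose and 15 fell (2 and 27 after scaling). The kinase PLK1 was at 48, 48 and 53.7 TPM against 98.8, 85.5 and 81 TPM (-0.81 ± 0.11), cyclin B1 (CCNB1) at 148, 144 and 145 TPM against 257, 246 and 252 TPM (-0.78 ± 0.042, adjusted p = 4.43e-08) and the anaphase activator CDC20 at 108, 104 and 103 TPM against 184, 158 and 149 TPM (-0.63 ± 0.071). Treated and control libraries of these 5 genes did not overlap. Of 34 homologous recombination and Fanconi genes 20 rose and 6 fell (7 and 11 after scaling, 7 and 7 against EV DMSO alone). The break sensor NBN was at 18.1, 16.9 and 16.4 TPM against 41.7, 39.4 and 34 TPM (-1.11 ± 0.073, adjusted p = 1.81e-07) and BRCA1 at 25.2, 25.3 and 28.1 TPM against 19.97, 15.6 and 16.1 TPM (0.58 ± 0.089, or 0.37 against EV DMSO).

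Metabolic groups were mixed apart from lysosome genes. Of 25 lysosome and autophagy genes 21 rose and 2 fell, 12 and 3 after scaling and 17 and 2 against EV DMSO alone. MAP1LC3B, which coats autophagosomes, was at 136, 144 and 152 TPM against 89, 66.2 and 49.4 TPM (1.11 ± 0.15, or 0.69 against EV DMSO) and its relative GABARAPL1 at 67.6, 62.5 and 71 TPM against 34.1, 48.2 and 34.5 TPM (0.78 ± 0.11). Of 30 glycolysis and hypoxia genes 14 rose and 8 fell, turned by scaling to 6 and 10. The hypoxia genes ADM, encoding the peptide adrenomedullin, and NDRG1 were at 31.5, 33.4 and 35.2 TPM against 14.2, 14 and 10.1 TPM (1.33 ± 0.11, adjusted p = 1.18e-06) and at 280.4, 293 and 309.8 TPM against 162, 161 and 149.9 TPM (0.90 ± 0.048). Hexokinase HK2 moved the other way, at 5.96, 6.48 and 6.88 TPM against 17.2, 13.8 and 12.5 TPM (-1.05 ± 0.099, adjusted p = 2.72e-06). Of 32 sterol and fatty acid synthesis genes 11 rose and 9 fell (5 and 19 after scaling). The sterol reductase TM7SF2 was at 23, 23.9 and 25.8 TPM against 9.59, 10.6 and 13.9 TPM (1.05 ± 0.11), and SREBF1, which turns on lipid synthesis, at 12.3, 13.3 and 15 TPM against 26.5, 34.4 and 23.4 TPM (-0.99 ± 0.16). Of 47 respiratory chain subunits 26 rose and 2 fell, and with scaling 0 and 11 did. Of 23 NRF2 target genes 9 rose and 4 fell, turned to 3 and 11 by scaling and 5 and 13 against EV DMSO alone. Among them OSGIN1 was at 43.4, 45.8 and 51.7 TPM against 28.6, 23.6 and 19.2 TPM (0.97 ± 0.12) and the aldo-keto reductase AKR1B10 at 50.1, 49.5 and 45.1 TPM against 86.9, 72.3 and 73.8 TPM (-0.67 ± 0.071). S100A13, a small calcium-binding protein, was at 661, 628 and 620.1 TPM against 328, 284 and 308 TPM (1.05 ± 0.053, adjusted p = 2.61e-08), in a list where 6 of 12 rose and 1 fell (1 and 1 after scaling). In the remaining lists the rises and falls, with those after scaling in brackets, were for Notch genes 3 and 0 of 9 (3 and 4), for MYC family genes 3 and 3 of 12 (2 and 6), for other KLF factors and KLF5 cofactors 8 and 3 of 19 (4 and 8), for cytochrome P450 and UGT enzymes 7 and 3 of 17 (3 and 6) and for metallothioneins 3 and 4 of 11 (1 and 5).

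The resistance variants bear on whether the differences depend on the drug's target, and all 9 libraries compared had received CB-6644. EV cells differed from A62T and dF109 cells with CB-6644 in 6805 genes, 4115 higher in EV (33.5% of 12296) and 2690 lower (21.9%). The 3 EV libraries are shared with the comparison above, so the values stand side by side and not as a second, independent result. FGF19 was at 33.4, 32.1 and 35.6 TPM in A62T cells and 36, 38.3 and 36.5 TPM in dF109 cells with CB-6644, against 6.85, 7.3 and 8.01 TPM in EV cells, a difference of -2.12 ± 0.081 (SE; adjusted p = 3.32e-09). EDAR was at 29.2, 28.8 and 28 TPM and 28.3, 28.1 and 27.7 TPM, near the top of the DMSO libraries' range, and differed by -2.44. KAT5 was at 49.4, 45.6 and 48.4 TPM and 35.1, 33.6 and 35 TPM (-1.14), and dF109 cells with the compound lay between EV cells with it and the controls. INCA1, at 4.63, 3.87 and 2.96 TPM in A62T and 4.61, 5.39 and 3.3 TPM in dF109 cells, was above all 3 DMSO libraries and below EV cells (1.54). IL1A was at 5.06, 5.17 and 5.51 TPM in A62T and 2.56, 2.77 and 3.13 TPM in dF109 cells, close to the DMSO library of the same vector (2.19), and SESN2 at 9.75, 9.08 and 9.29 TPM and 7.31, 6.88 and 6.04 TPM (1.77). Histone HIST1H2BD was at 55.8, 50.5 and 69.3 TPM and 58.1, 59.1 and 69.9 TPM, above all 3 DMSO libraries, and differed from EV by 0.69. Of the 24 genes with the largest rises and falls all differed between EV and variant cells in the direction of their change, from -2.44 for EDAR to 1.61 for PGAM2, the smallest size being 0.82 for HIST3H2BB. KLF5 differed by -0.38 (adjusted p = 0.000664) and ELF3 by -0.33, while FA2H, MUC1, HNF4A and GATA6 did not pass. After scaling HNF4A (-0.26, adjusted p = 0.000656) and GATA6 (-0.17, adjusted p = 0.0147) passed.

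By group, 19 of 23 integrated stress genes were higher in EV than in variant cells and 1 lower (17 and 3 after scaling). The counts were 18 and 2 for the chemokine list (17 and 5 scaled), 23 and 3 for the interferon list (20 and 3), 18 and 2 for the p53 list (18 and 2) and 12 and 1 for the histones (11 and 1). These counts take no account of levels under DMSO, where EV cells already stood above both variants for SESN2, ATF3 and IL1A. A difference between the vectors and a difference in drug response cannot be told apart in them. Of the groups that fell with the compound, 23 ribosome biogenesis factors were lower in EV and 2 higher (31 and 0 scaled), as were 40 and 2 ribosomal proteins (36 and 0). The INO80, SRCAP and TIP60 subunits had 17 lower and 4 higher (21 and 2), the keratins 6 and 1 (7 and 0) and the Wnt genes 8 and 0 (9 and 0). In this comparison the share of calls that were higher went from 60.5% to 44.5% with scaling.

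T3M-4, a basal-like PDAC line treated in the same way, is the most like experiment and shares no library with the one above. There 4592 of 13183 genes passed, 2561 higher (19.4%) and 2031 lower (15.4%), and the higher share of calls went from 55.8% to 39.7% with scaling. Of genes tested in both lines, 1718 of the 5562 rises in EV AsPC-1 also rose in T3M-4 (30.9% of the AsPC-1 rises and 80.1% of the T3M-4 rises) and 988 of the 1965 falls also fell (50.3% and 54.7%), with 177 and 57 going the other way. These overlaps were counted on TPM as deposited and not after scaling. The test of the difference between the 2 effects called 2358 of 11616 genes, 1690 with the higher effect in AsPC-1 (14.5%) and 668 with the lower (5.75%). This count depends on single libraries: it was 1433 without the AsPC-1 dF109 DMSO library, 1569 without AsPC-1 EV CB-6644 replicate 3, 3548 without T3M-4 EV CB-6644 replicate 1 and 4522 without the T3M-4 EV DMSO library.

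Several of the largest AsPC-1 changes differed from those in T3M-4. The largest changes were picked by their size in AsPC-1, which itself enters the difference. MUC20 was at 37.2, 23 and 12.1 TPM with CB-6644 and 17.5, 155 and 69.2 TPM with DMSO in T3M-4 (-1.36 ± 0.59 SE, adjusted p = 0.097), and the difference from AsPC-1 was 3.45 (adjusted p = 0.00136). The T3M-4 DMSO libraries of MUC20 spread widely, from 17.5 to 155 TPM. The treated T3M-4 libraries, from 12.1 to 37.2 TPM, lay on both sides of the lowest of them. The difference for MUC20 was not tested with the EV DMSO libraries alone as control. EDAR was at 0.762, 0.711 and 0.523 TPM against 1.55, 1.78 and 1.62 TPM (-0.67), a difference between lines of -1.62 (adjusted p = 4.23e-07). PLAT was at 45.8, 45.9 and 43.6 TPM against 54, 52.6 and 56.4 TPM (-0.26), a difference of -1.45 (adjusted p = 7.86e-09). NPTXR and HAP1 also rose in T3M-4, by 2.11 and 1.99, with differences between lines of 0.13 ± 0.32 and 0.19 ± 0.24 (SE) that did not pass. KAT5 also fell in T3M-4, at 16, 15.9 and 15.8 TPM against 44.3, 59.9 and 49.6 TPM (-1.62, adjusted p = 2.91e-06). KLF5 was at 231, 202 and 172 TPM against 229, 255 and 223 TPM and did not pass in T3M-4 (-0.23, adjusted p = 0.083), nor did its difference between lines (-0.30, adjusted p = 0.109). Stress and inflammatory groups differed between the lines with the DMSO libraries of each line pooled. A higher effect in AsPC-1 was called for 18 of 26 chemokine genes (18 after scaling), 16 of 23 integrated stress genes (15) and 14 of 33 interferon genes (12), and a lower one for 0, 0 and 0 (0, 0 and 2 after scaling). In AsPC-1 the rises of these lists were fewer against the EV DMSO library alone, and the difference between lines was not tested with that control. In T3M-4 itself 16 of 28 integrated stress genes fell and 1 rose (17 and 0 scaled), and 11 of 28 chemokine genes fell and 1 rose (18 and 2). The ribosomal protein genes had a lower effect in AsPC-1 for 35 of 78 as deposited but for 5 after scaling. Ribosome biogenesis factors fell in T3M-4 as well, 21 of 39 with 1 rise (29 and 1 scaled).

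Loss of RUVBL1 or KLF5 by CRISPR-Cas9 in AsPC-1 at day 5 gives values for the target and for the lineage factor. Each knockout had 4 libraries against 4 with the control guide sgRosa, which both share, and neither shares a library with the drug comparison. The series holds another AsPC-1 experiment for each of these knockouts, and those were not used here. RUVBL1 was at 27.4 to 34.7 TPM with sgRUVBL1 and 79.5 to 86.8 TPM with sgRosa. With sgRUVBL1, 4477 genes were higher (36.6% of 12224) and 1862 lower (15.2%), and the higher share of calls went from 70.6% to 47% with scaling. With sgKLF5, 1888 were higher (15.4%) and 1507 lower (12.3%). Of the genes that rose with CB-6644 and were tested in both, 3158 of 5627 rose with sgRUVBL1 (56.1% of the drug's rises and 71% of the knockout's), and 940 of 2095 falls fell (44.9% and 51.5%). With sgKLF5 842 of the rises also rose (15% and 46.1%) and 406 of the falls also fell (19.4% and 27.2%), while 495 rises fell and 322 falls rose. For the rises these shares were near those of all genes tested, 15.4% for sgKLF5 and 47.6% for CB-6644. For the falls they were above the 12.3% and 17.1% of all genes. The 322 were 15.4% of the falls, the same as the share of all genes that rose with sgKLF5. These overlaps were counted on TPM as deposited and not after scaling. On that scale the median gene was higher with CB-6644 (0.195) and with sgRUVBL1 (0.156). A common shift in scale and shared rises cannot be told apart in these counts. The times also differ, at 24 h and day 5, so the overlaps are descriptions.

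Named genes were then set beside their drug values. EDAR changed by -1.16 with sgRUVBL1 (adjusted p = 0.00124) and -3.05 with sgKLF5 (adjusted p = 3.67e-08), PLAT by -0.83 and -1.72, and MYO1A by -1.32 and -2.67, and all 3 fell under the drug and both guides. RGS2 fell with sgRUVBL1 (-0.26) and rose with sgKLF5 (0.58), and CLDN2 did not pass with sgRUVBL1 (-0.014, adjusted p = 0.934) and rose with sgKLF5 (1.12). Among the rises, HIST2H3A rose with sgRUVBL1 by 2.23 (adjusted p = 0.000351) and changed by 0.085 with sgKLF5 (adjusted p = 0.908). EHF, KAT5 and KRT19 changed by -0.69, -0.74 and -0.79 with sgRUVBL1, and by -0.19, -0.025 and -0.15 with sgKLF5, where none of the 3 passed. KLF5 itself changed by -0.53 with sgRUVBL1 (adjusted p = 8.54e-05). Its message changed by 0.099 with sgKLF5 (adjusted p = 0.446), so the message level does not check the KLF5 guide here. HNF4A and ELF3 changed by -1.49 and -1.37 with sgKLF5 and did not pass with sgRUVBL1 (-0.036 and 0.032).

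**Figure D4:**
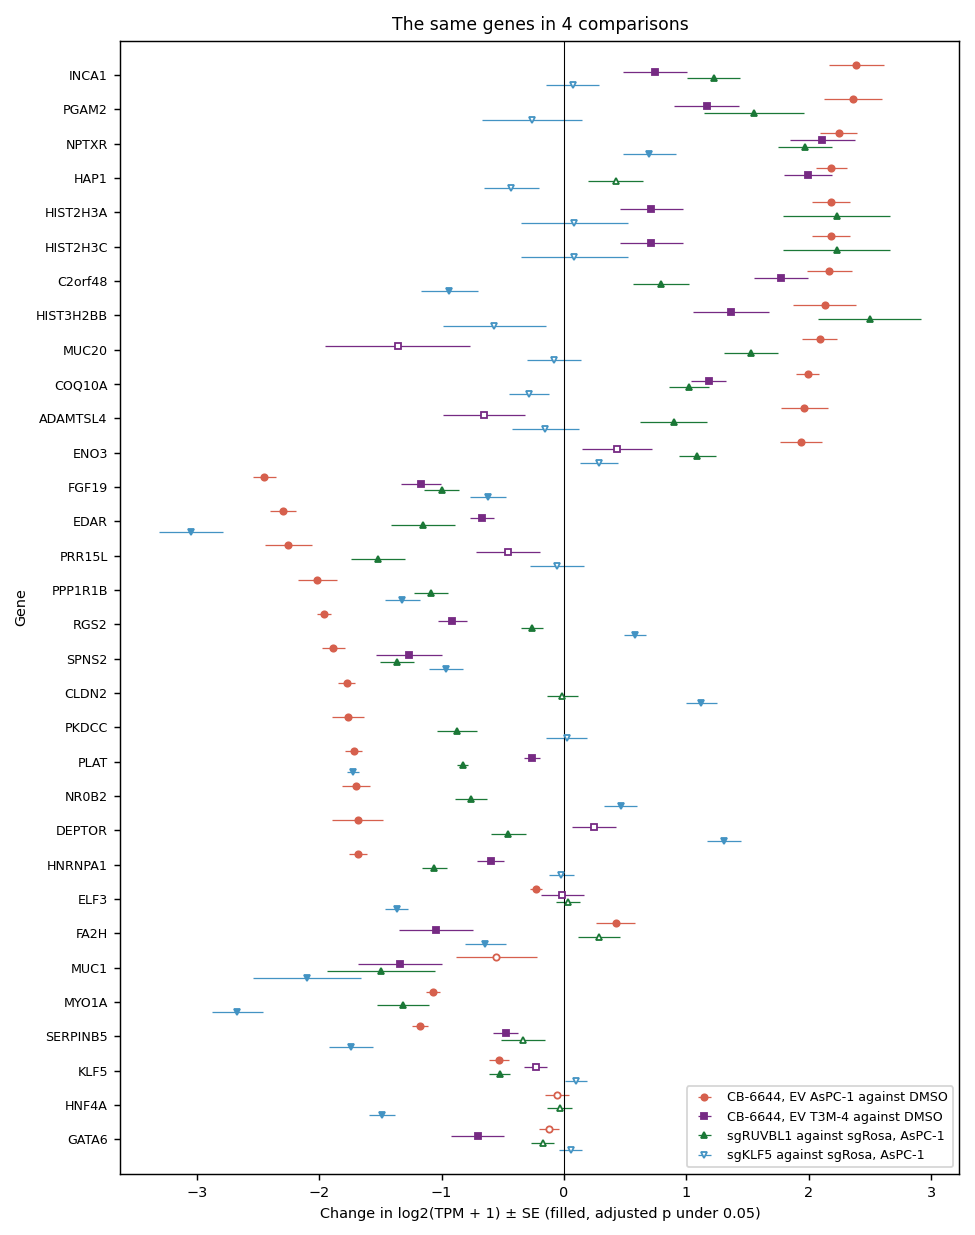
Difference ± SE (log2(TPM + 1)) of the 24 genes with the largest changes and of the 8 study genes in 4 comparisons: CB-6644 in EV AsPC-1, CB-6644 in EV T3M-4, and sgRUVBL1 and sgKLF5 against sgRosa in AsPC-1; filled symbols passed an adjusted p of 0.05, and a gene too low in T3M-4 has no square. HAP1 and NPTXR sit near 2 in both lines, MUC20 passed with the compound in AsPC-1 and not in T3M-4, and EDAR reached -3.05 with sgKLF5.

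By group, sgRUVBL1 raised 12 of 18 histone genes and lowered 2, with a median of 1.22, and the counts were 12 and 2 after scaling. It lowered 8 of 10 keratins and 8 of 11 Wnt genes and raised 0 and 0 (8 and 8 lower after scaling). Of the ribosomal protein genes 34 fell and 6 rose (46 and 0 scaled). Ribosome biogenesis factors had 16 higher and 6 lower (11 and 10 scaled), beside 1 and 25 with CB-6644. The INO80, SRCAP and TIP60 subunits had 14 and 5 (9 and 10 scaled), and the chaperonin subunits 9 and 1, which turned with scaling to 1 and 3. Interferon genes, of which 18 rose and 6 fell with the drug, had 4 higher and 14 lower with sgRUVBL1 (3 and 19 scaled). With sgKLF5, 10 adhesion molecules, 10 brush border genes and 9 S100 genes fell, 3, 1 and 0 rose (10, 13 and 10 fell after scaling), and 5 keratins rose with 0 falls on both scales. The difference in direction between drug and guide was not tested.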

How the data were processed

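RNA from AsPC-1 cells was sequenced single-end from poly-A libraries. Per the labels and the study's methods, the authors quantified reads with kallisto against hg38, removed transcripts of low abundance at a limit not given in the sources used here, and summed to genes with tximport, and they deposited TPM values for 19875 gene names. TPM sum to a constant, so sequencing depth is unknown. From these, log2(TPM + 1) was fitted with limma 3.58.1 in R 4.3.3 (trended empirical Bayes, two-sided, all 12 libraries, 1 mean per group and the 3 DMSO libraries as 1 group), with Benjamini-Hochberg adjustment over the 12296 genes averaging 1 TPM or above, at a threshold of 0.05. RUVBL1 and RUVBL2 were left out. In simulated data 85 of 100 genes changed by 0.5 and 98 of 100 changed by 1 (log2) were recovered, and 4.69% of calls were false. The simulation had independent noise, changed few genes, all above 10 TPM, and held no difference between vectors or in scale. Its share of false calls therefore does not carry over to the calls reported here. Genes named are the 12 largest rises and 12 largest falls that were called, separated all libraries and reached 10 TPM in a group, 8 study genes and up to 4 such genes of each list. The members and lists were chosen with earlier results of these data known. Nothing in the labels says that libraries of a group came from separate cultures, so p-values measure the spread between libraries, which may be technical. The controls mix 3 vectors with 1 library each, so the EV DMSO library alone was run as an alternative. Motif windows came from RefSeq on GRCh38.p14 and matched 9948 genes (80.9%) by symbol. Replicate numbers were treated as names only. Alternatives were another pseudocount, other filters, scaling by the median of ratios, single arms and leaving out each library.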

Additional observations from a re-analysis of the deposited data

Results flagged for a closer look

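In 17 of 26 genes asked, the effect of CB-6644 differed between EV AsPC-1 and EV T3M-4 by the interaction test in limma, each also after scaling, and 16 also in each fit that left out 1 library, the exception being PGAM2 (highest adjusted p = 0.103). Values are the AsPC-1 effect minus the T3M-4 effect on the log2(TPM + 1) scale. The effect was higher in AsPC-1 for MUC20 at 3.45, ADAMTSL4 at 2.62, INCA1 at 1.64, ENO3 at 1.4997, HIST2H3A and HIST2H3C at 1.47 each, FA2H at 1.47, PGAM2 at 1.198 and COQ10A at 0.81. It was lower in AsPC-1 for DEPTOR at -1.93, PRR15L at -1.79, EDAR at -1.62, PLAT at -1.45, FGF19 at -1.29, HNRNPA1 at -1.08, RGS2 at -1.05 and SERPINB5 at -0.70. HIST2H3A and HIST2H3C carry the same values and are 1 measurement. For MUC20 the T3M-4 DMSO libraries spread widely, and its effect in T3M-4 alone did not pass. None of these differences was tested with the EV DMSO libraries alone as control. Subtype and cell line cannot be told apart here, since each subtype is represented by 1 line.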

How the results depend on the processing

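The number of genes called for CB-6644 in EV AsPC-1 (7955) was 7964 with a pseudocount of 0.1, 9599 without a filter, 6592 with a filter at 5 TPM, 7659 after scaling, 6900 from the 6 libraries alone, 7894 with the filter over 12 libraries, 6047 with EV DMSO alone as control (62.6% higher), and 6927 to 8529 when 1 library was left out. After scaling 5303 calls kept their direction, 2 reversed and 2650 were lost. With EV DMSO alone 5415 kept it and 0 reversed. For EV against variant cells (6805) the count was 5685 to 7798 under other settings and 5784 to 6516 leaving out 1 library. The replicate numbers did not pair the libraries: correlations of same-numbered libraries ran from -0.447 to 0.269, and with the replicate as a block 6967 genes passed against 7651 in the same 9 libraries without it. The difference between AsPC-1 and T3M-4 (2358) was called for 2323 with a pseudocount of 0.1, 3509 without a filter, 1816 at 5 TPM and 2757 after scaling (53.1% higher against 71.7%), and for 1433 to 4522 genes leaving out 1 library. It is the least stable count, and the cause was not tested. With scaling the higher share of calls was 39.7% in T3M-4, 47% for sgRUVBL1 and 50% for sgKLF5 (55.6% as deposited).

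Some values changed sign. After scaling FA2H was -0.00701 in EV against variant cells, and the difference between lines was -0.000815 for NPTXR, -0.0999 for PPARG, -0.055 for KAT5 and -0.038 for DKC1. Leaving out 1 library, HNF4A ran from -0.14 to 0.027 in EV AsPC-1, FA2H from -0.0077 to 0.17 against variant cells, and the difference between lines from -0.081 to 0.036 for CCT2, -0.032 to 0.88 for CEACAM6, -0.064 to 0.39 for HAP1, -0.013 to 0.20 for KAT5, -0.20 to 0.41 for NPTXR, -0.0701 to 0.517 for PLK1, -0.0697 to 0.147 for PPARG and -0.14 to 0.018 for YEATS4. TPM give no depth, so small differences at low levels carry no counting error here.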
